A study of Mus musculus with 4 samples.

Results

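The RNA levels of 8 genes of cholesterol synthesis were followed through 4 single-cell libraries of mouse muscle cells. The genes were taken by symbol from a fixed list of 8 among 25804 gene symbols, and all 8 were measured in every library: Hmgcs1 (ENSMUSG00000093930), Idi1 (ENSMUSG00000058258), Fdps (ENSMUSG00000059743), Fdft1 (ENSMUSG00000021273), Sqle (ENSMUSG00000022351), Cyp51 (ENSMUSG00000001467), Msmo1 (ENSMUSG00000031604) and Insig1 (ENSMUSG00000045294). Of these, 7 encode enzymes. Insig1 encodes no enzyme but a membrane protein of the endoplasmic reticulum that restrains the pathway.

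All cells came from Pax7-nGFP mice, in which the Pax7 promoter, active in muscle stem cells (satellite cells), drives a nuclear green fluorescent protein. Each group was 1 library, so effects of group cannot be told apart from those of its animals or its batch, and no test between groups was possible. The fiSC library (freshly isolated satellite cells) held sorted GFP-positive cells of limb muscle, pooled from 3 male mice 13 weeks old. The ASC library (activated satellite cells) held sorted GFP-positive cells of 17 pooled tibialis anterior muscles from mice of both sexes, 18 to 24 weeks old, taken 3 days after injection of cardiotoxin at 10 µM, a toxin that destroys muscle fibres. Myoblasts, the proliferating descendants of satellite cells, derived from a 16-week-old male and were cultured for 2 passages with 20% foetal bovine serum, 10% horse serum and basic FGF at 10 ng/ml. Myogenic progenitor cells (MPC) had parental cells from a male of the same age. After 2 passages as myoblasts they spent 5 passages with 5 µM Forskolin, which raises cAMP, 5 µM Repsox, which blocks the TGF-beta receptor, and 3 µM of a CHIR compound that activates Wnt signalling. Their medium held 10% foetal bovine serum, 10% serum replacement and the same amount of FGF, so the serum of the 2 cultures differed as well as the 3 compounds. The labels of the 2 cultures name no GFP sort.

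Cholesterol is built from acetyl-CoA through mevalonate, farnesyl diphosphate and squalene to lanosterol, which is then trimmed to cholesterol. When sterols in the endoplasmic reticulum run low, the transcription factor SREBP-2 is cut from its membrane anchor and switches on the enzymes of the whole route. INSIG proteins hold the SREBP escort SCAP in place when sterols are plentiful. Dividing cells need sterol for new membranes, and macrophages, which take up cholesterol with the debris they engulf, export it through LXR target genes.

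After filtering, 2185 fiSC, 6448 ASC, 2351 myoblast and 9059 MPC cells remained, with medians of 8760, 19810.5, 22843 and 13210 unique molecular identifiers (UMIs, counted molecules) per cell. Clusters that expressed muscle lineage markers held 2126, 2650, 2002 and 7712 of these cells and are called myogenic. In the ASC library 2986 cells (46.3%) were macrophage-like by all 14 macrophage markers, despite the label of a Pax7 reporter sort, and they are kept apart from the 41.1% that were myogenic. Between 2 and 18 barcodes of kept cells were shared by any pair of libraries, and between 4 and 164 of all deposited barcodes. Every kept cell whose barcode was also deposited in another library was left out as a check. This changed 1 count below, that of the macrophage-like comparison, by 1 gene. A level is the UMIs of a gene summed over the cells of a class scaled to the same total for every class (CPM). Its interval is an exact 95% Poisson interval, which covers counting error only. These UMIs count molecules at the 3' end without regard to transcript length and were not compared between genes. A size rule stands in for a test: a gene met it in a pair of classes with a 2-fold or larger ratio of CPM plus 5 and 10 CPM or more in the higher class.

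Summed over the 8 genes, the myogenic cells of fiSC had 452 CPM (interval 443 to 462), those of ASC 210 CPM (207 to 212), those of MPC 174 CPM (172 to 177) and those of myoblast 139 CPM (136 to 142). The freshly isolated cells therefore gave the largest share of their RNA to these genes, 2.16 times that of ASC (interval 2.11 to 2.21), 2.59 times that of MPC (2.53 to 2.66) and 3.25 times that of myoblast (3.15 to 3.36). Of the 8 genes, 7 were highest in fiSC, and Fdft1 was highest in MPC.

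The share of RNA and the number of molecules per cell gave different orders. The average myogenic cell held 47718 UMIs in ASC, 25123 in myoblast, 14731 in MPC and 8924 in fiSC. Per cell, the 8 genes together had 10.0 UMIs in ASC, 4.04 in fiSC, 3.50 in myoblast and 2.57 in MPC. All 8 genes had more UMIs per cell in ASC than in fiSC. The ratio was smallest for Insig1, at 0.786 against 0.525, and largest for Fdps, at 1.21 against 0.245. RNA content and capture of a library cannot be told apart in these totals, and the levels below are shares of RNA.

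**Figure D1:**
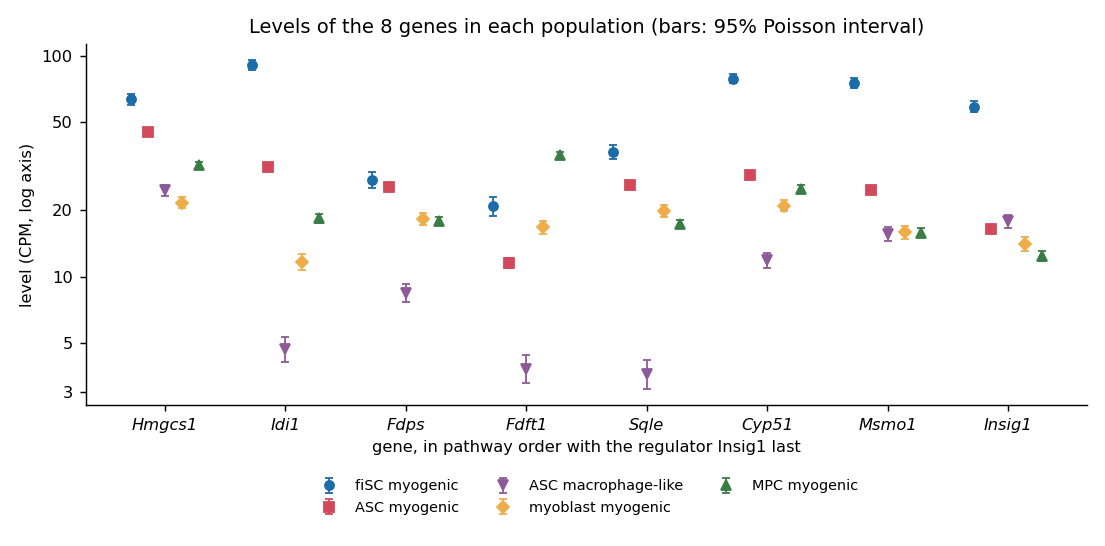
Levels of the 8 genes in CPM (vertical axis, log scale) in the myogenic cells of the 4 libraries and the macrophage-like cells of ASC, 1 point per class with its 95% Poisson interval. The fiSC points lie above the rest for every gene except Fdft1, which is highest in MPC at 35.5 CPM.

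Hmgcs1 encodes HMG-CoA synthase, which condenses acetyl units before the mevalonate step. Its level was 63.5 CPM in fiSC, 45.3 CPM in ASC, 32.1 CPM in MPC and 21.7 CPM in myoblast, and the 4 intervals did not overlap. Idi1 encodes isopentenyl diphosphate isomerase, which balances the 5-carbon units of the isoprenoid chain. It had the widest spread of the 8 genes, with 90.8 CPM in fiSC, 31.4 CPM in ASC, 18.4 CPM in MPC and 11.7 CPM in myoblast. The fiSC level of Idi1 was 7.78 times that of myoblast (interval 7.08 to 8.56), the largest such ratio among the 8 genes.

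Fdps encodes farnesyl diphosphate synthase, whose product is shared by the sterol, ubiquinone, dolichol and protein prenylation branches. Fdps was the most even of the 8, with 27.4 CPM in fiSC (25.1 to 29.9), 25.4 CPM in ASC (24.5 to 26.3), 18.3 CPM in myoblast (17.1 to 19.5) and 17.8 CPM in MPC (17.1 to 18.6). The intervals of fiSC and ASC overlapped, as did those of the 2 cultures. Fdft1 encodes squalene synthase, which commits farnesyl diphosphate to sterols. Its order was unlike that of the other genes, with 35.5 CPM in MPC, 20.8 CPM in fiSC, 16.8 CPM in myoblast and 11.6 CPM in ASC, and none of the intervals overlapped.

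Sqle encodes squalene epoxidase, a slow step that needs oxygen. Its level was 36.8 CPM in fiSC, 26.0 CPM in ASC, 19.8 CPM in myoblast and 17.4 CPM in MPC, again with no overlap of intervals but with fiSC at most 2.12 times any other library. Cyp51 encodes lanosterol demethylase and Msmo1 the sterol C4-methyl oxidase, which both act in trimming lanosterol. Cyp51 was at 78.8 CPM in fiSC against 28.7, 25.0 and 21.0 CPM in ASC, MPC and myoblast. Msmo1 was at 75.4 CPM in fiSC against 24.7, 15.8 and 15.9 CPM in the same order, and the MPC and myoblast intervals of Msmo1 overlapped (15.1 to 16.6 and 14.8 to 17.0 CPM). Insig1, the sterol sensor, was at 58.9 CPM in fiSC, 16.5 CPM in ASC, 14.1 CPM in myoblast (13.0 to 15.1) and 12.4 CPM in MPC (11.7 to 13.0). Its fiSC level stood 3.58 times above ASC (interval 3.32 to 3.85) and 4.76 times above MPC (4.39 to 5.15), while the lower ends of the order lay close together.

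The sequences in front of the genes are shown because SREBPs act there. RefSeq promoter windows on mouse build GRCm38.p6 (the counts were made on another build) matched 5 of the 8 genes, Hmgcs1, Idi1, Cyp51, Msmo1 and Insig1, and all 5 are printed in whole or in part. That match, and not the levels, chose these 5. The 250 bases before each start were searched on both strands for the sterol regulatory element TCACNCCAC, the sequence class that SREBPs bind, and for the CCAAT box, the binding sequence of NF-Y, a partner of SREBPs. Below, capitals mark the element or a CCAAT box, which reads ATTGG where it lies on the other strand, and in Insig1 also the E-box CACGTG. Each line is 5′ to 3′ on the strand of the gene and lies upstream of its annotated start.
Hmgcs1: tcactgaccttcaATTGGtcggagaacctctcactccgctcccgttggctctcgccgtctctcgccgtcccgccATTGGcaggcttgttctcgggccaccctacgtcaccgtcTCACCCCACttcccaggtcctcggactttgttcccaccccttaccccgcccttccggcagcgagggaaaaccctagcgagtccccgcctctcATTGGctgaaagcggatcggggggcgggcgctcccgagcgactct
Insig1: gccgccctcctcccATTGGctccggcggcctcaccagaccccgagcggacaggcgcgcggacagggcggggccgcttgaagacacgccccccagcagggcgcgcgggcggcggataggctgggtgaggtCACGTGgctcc
Idi1: gtccaaggtgccATTGGctggcgacc
Cyp51: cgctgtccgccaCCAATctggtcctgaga
Msmo1: gagtggggcggaCCAATtacgacaggcga

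The Hmgcs1 window is chr13:119690101-119690350 on the plus strand and ends at the base before the start. The Insig1 stretch is chr5:28071182-28071321, plus strand, 230 to 91 bases before the start. The shorter stretches are chr13:8885580-8885605 (Idi1, plus strand), chr5:4104710-4104738 (Cyp51, minus strand) and chr8:64733617-64733645 (Msmo1, minus strand), each around the CCAAT box nearest the start. The full element TCACNCCAC was found in 1 of the 5 genes, Hmgcs1, 137 to 129 bases before the start, and in 1.05% of all 32851 windows of 250 bases. Its core, the last 8 letters CACNCCAC, was found in 2 of the 5 genes, Hmgcs1 within that element and Insig1 9 to 2 bases before the start, in 1 of the 12 other enzymes with a window and in 5.29% of windows. A CCAAT box was found in 5 of 5 genes, with 3 copies each in Hmgcs1 and Msmo1, and in 33.8% of all windows. Among the other enzymes of cholesterol synthesis 11 of the 12 with a window held a CCAAT box. The GC box GGGCGG, bound by SP1, was in 5 of 5 genes, in 11 of the 12 other enzymes and in 32.7% of windows. The E-box CACGTG was in Insig1 alone among the 5, in 3 of the 12 other enzymes and in 6.02% of windows. These are matches of letters only.

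Against fiSC, the ASC library was lower by the size rule in 4 of the 8 genes and higher in none, beside 23.6% of the 8989 genes measured that were lower and 24.3% that were higher. Insig1 had a log2 ratio of -1.57, Msmo1 -1.44, Idi1 -1.40 and Cyp51 -1.31. The other 4 genes did not meet the rule, with -0.64 for Fdft1, -0.44 for Hmgcs1, -0.43 for Sqle and -0.09 for Fdps. The median over the 8 genes was -0.98, and over all genes measured 0.03. With scaling by trimmed means (TMM) the last median was 0.28, and 60.8% of all calls were higher instead of 50.7%. Fdps then had 0.12, so its direction is not settled.

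The myoblast library was lower than fiSC in 5 of 8 genes and higher in none, where 17.6% of 9548 genes were lower and 28.9% higher. The log2 ratios were -2.52 for Idi1, -1.95 for Msmo1, -1.74 for Insig1, -1.69 for Cyp51 and -1.36 for Hmgcs1. Sqle (-0.75), Fdps (-0.48) and Fdft1 (-0.25) did not meet the rule. The median of the 8 genes was -1.52 and that of all genes 0.33, whereas over all genes more were higher than lower.

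The MPC library was lower than fiSC in 4 of 8 genes and higher in none, where 16.4% of 9626 genes were lower and 28.9% higher. Idi1 had a log2 ratio of -2.04, Msmo1 -1.95, Insig1 -1.88 and Cyp51 -1.48. Sqle at -0.90 and Hmgcs1 at -0.88 lay just short of 2-fold, Fdps was at -0.50, and Fdft1 was on the other side at 0.65. The median of the 8 genes was -1.19 and that of all genes 0.35. These 3 comparisons share the fiSC library, so the same 4 genes appearing in each is not independent evidence.

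**Figure D2:**
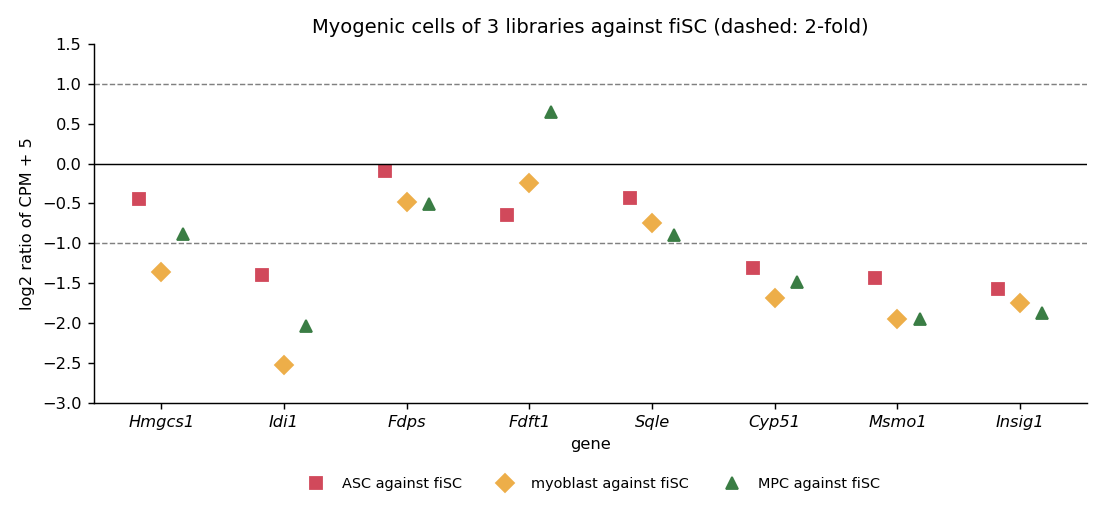
Log2 ratios of CPM plus 5 for the 8 genes, myogenic cells of ASC (squares), myoblast (diamonds) and MPC (triangles) each against fiSC, with dashed lines at 2-fold. Idi1, Cyp51, Msmo1 and Insig1 lie below the lower line in all 3 comparisons, and Fdft1 lies above 0 in MPC alone.

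The cells outside the fresh library also carried cell division genes. All 20 genes of a G2/M list were higher by the size rule in each of the 3 other libraries than in fiSC, with median log2 ratios of 4.02 for ASC, 3.92 for myoblast and 4.10 for MPC. After each cell was reduced to 2000 UMIs, 0.961% of progenitor-like cells had at least 2 UMIs of these genes in fiSC, 90.3% in ASC, 67.9% in MPC and 57.5% in myoblast. Among progenitor-like cells with fewer, 3 genes were lower in ASC than in fiSC (Cyp51 then at -0.96), 5 in myoblast and 5 in MPC, where 21.1%, 17.7% and 16.9% of all genes were lower. The log2 ratios of the summed genes in these cells were -0.87, -1.68 and -1.39.

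Within a library, progenitor-like cells with and without G2/M genes differed by the size rule in none of the 8 genes. The summed level was 212 CPM with and 245 CPM without in ASC, 145 and 137 CPM in myoblast, and 149 and 170 CPM in MPC. In fiSC 20 cells with G2/M genes had 516 CPM and the 2062 others 452 CPM, and the interval of that ratio included 1. Of all genes, 11.8% were higher and 9.62% lower in the fiSC split, 0.290% and 2.0% in ASC, 2.88% and 0.45% in myoblast, and 2.46% and 0.0445% in MPC. The largest differences of progenitor-like cells outside fiSC were -0.42 on the log2 scale for Insig1 in ASC, 0.32 for Idi1 in myoblast and -0.38 for Fdps in MPC. Over all myogenic cells, differentiating clusters included, Msmo1 in MPC was at 10.9 CPM with and 24.3 CPM without G2/M genes, a log2 ratio of -0.88. Fdft1 in ASC was at 11.1 and 17.9 CPM in the same split, a log2 ratio of -0.51.

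Among the other 3 libraries the 8 genes differed less. Between myoblast and ASC 1 of 8 genes met the rule, Idi1, lower in myoblast at -1.13, where 4.9% of genes were lower and 14.7% higher. Hmgcs1 lay just short of it at -0.92. Between MPC and ASC only Fdft1 met the rule, higher in MPC at 1.29, where 17.3% of genes were higher and 6.24% lower. The other 7 log2 ratios lay between -0.64 (Idi1) and -0.17 (Cyp51).

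MPC and myoblast, the 2 cultures, differed by the size rule in none of the 8 genes, where 6.47% of genes were higher in MPC and 6.91% lower. Fdft1 came nearest, with 35.5 CPM in MPC and 16.8 CPM in myoblast, a ratio of 2.12 (interval 1.96 to 2.28) and a log2 ratio of CPM plus 5 of 0.90. Idi1 (0.49) and Hmgcs1 (0.48) were somewhat higher in MPC. Cyp51 (0.21), Msmo1 (-0.01), Fdps (-0.03), Insig1 (-0.13) and Sqle (-0.15) lay closer to 0. With cells of at least 3000 UMIs, 1500 genes and at most 5% mitochondrial UMIs, the ratio of the summed genes changed sign, from 0.32 to -0.07. That filter left 473 myoblast cells in place of 2351, and 6496 MPC cells in place of 9059. The median mitochondrial share was 5.89% in myoblast and 3.87% in MPC.

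Within MPC, Fdft1 was highest in clusters 2 and 9. Cluster 2 of MPC, 1326 cells with the myogenic factor Myog at 998 CPM, had 69.7 CPM of Fdft1, and cluster 9, 239 cells named muscle differentiation-like, had 71.1 CPM. The progenitor-like cells of MPC had 25.9 CPM, and against them cluster 2 was higher, with a log2 ratio of 1.27. Fdft1 was the 1 gene of the 8 to meet the rule there, where 3.29% of genes were higher and 8.54% lower. Clusters 2 and 9 were singled out here by their Fdft1 level, so this count is a description only. In the myoblast library the Myog-rich cluster 6 (141 cells, Myog at 1595 CPM) had 35.6 CPM of Fdft1 and the progenitor-like cells 15.9 CPM. Cluster 5 of myoblast and cluster 6 of MPC, which were led by sarcomere genes, had 12.3 and 30.9 CPM of Fdft1, with Myog at 1150 and 1216 CPM. Markers of differentiating myocytes summed to 6127 CPM in cluster 2 and 7561 CPM in cluster 9 of MPC against 35982 CPM in cluster 6, so Fdft1 was highest in the Myog-rich clusters with the lower marker sums. In myoblast the sums were 23710 CPM in cluster 6 and 61581 CPM in cluster 5. With progenitor-like cells alone, the log2 ratio of Fdft1 between MPC and ASC was 0.89, and with those under 2 G2/M UMIs 0.47.

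**Figure D3:**
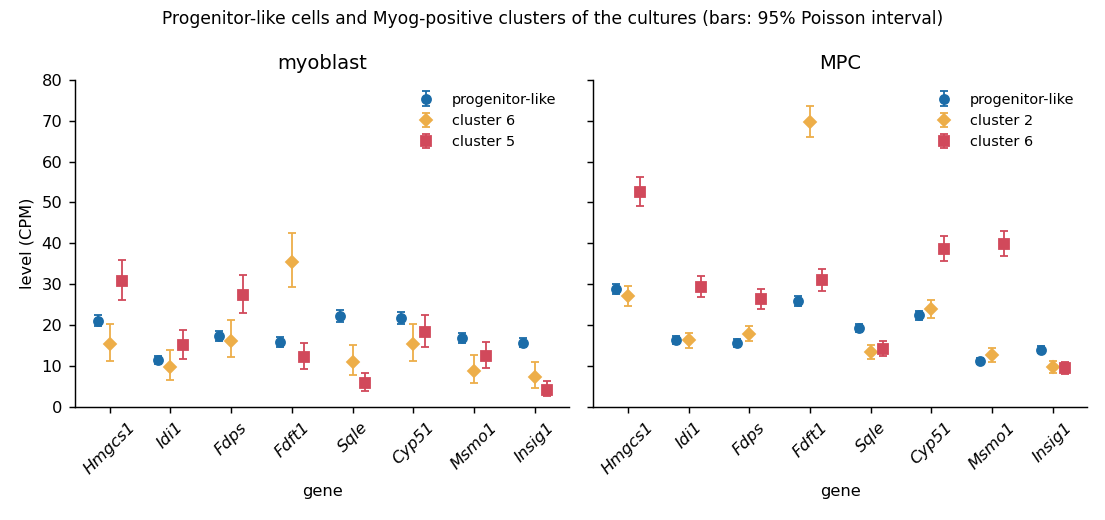
Levels of the 8 genes in CPM in progenitor-like cells and in 2 clusters with high Myog of each of the myoblast and MPC libraries, with 95% Poisson intervals. Among the classes drawn Fdft1 is highest in cluster 6 of myoblast, at 35.6 CPM, and in cluster 2 of MPC, at 69.7 CPM, whereas Sqle and Insig1 lie below the progenitor-like cells in all 4 clusters.

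Muscle differentiation-like cells of myoblast (318 cells) and MPC (1332 cells) were compared with the progenitor-like cells of the same library (1684 and 5054 cells). In MPC, Msmo1 was at 34.1 CPM against 11.2 CPM, a log2 ratio of 1.28 and the 1 gene to meet the rule, where 8.64% of genes were higher and 17.9% lower. Hmgcs1 (47.7 against 28.8 CPM), Idi1 (26.8 against 16.4), Cyp51 (34.5 against 22.5) and Fdps (25.0 against 15.7) were higher by less than 2-fold. Sqle and Insig1 were lower, at 14.3 against 19.3 CPM and 9.12 against 14.03 CPM. The clusters of this class differed, with 242 CPM of the summed genes in the sarcomeric cluster 6 (829 cells) but 35.3 CPM in cluster 11 (105 cells), against 154 CPM in progenitor-like cells. In cluster 11 Hmgcs1 was at 5.04 CPM, and no UMI of Sqle, Insig1 or Msmo1 was counted. Cells of cluster 11 were shallow, with a median of 2747 UMIs against 18034 in cluster 6. The levels of cluster 11 therefore rest on few UMIs and lie near the floor.

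In myoblast the same step showed Sqle at 7.89 against 22.2 CPM, a log2 ratio of -1.07 and the 1 gene to meet the rule, where 17.2% of genes were lower and 8.56% higher. Insig1 was at 5.46 against 15.7 CPM, a log2 ratio of -0.99. Msmo1, which was higher with differentiation in MPC, was at 11.0 against 16.8 CPM in myoblast. The difference between the libraries in this step was not tested. In ASC, cluster 7 (548 cells) had Myog at 58.4 CPM, against 202 to 1595 CPM in the muscle differentiation-like clusters of the cultures. By the size rule cluster 7 differed from the progenitor-like cells of ASC in none of the 8 genes. Of all genes, 0.0125% were higher and 0.449% lower there. Cluster 7 was not named muscle differentiation-like, so the step seen in the cultures was not tested in ASC.

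The 4 myogenic clusters of fiSC differed among themselves in several of the genes. Cluster 4 (254 cells) had 593 CPM of the summed genes, cluster 2 (661 cells) 533 CPM, cluster 1 (948 cells) 375 CPM and cluster 3 (263 cells) 327 CPM. Cluster 3, with Pax7 at 2029 CPM, was the lowest. Its leading genes held the quiescence gene Calcr but also Hes1, Gdf15, Ddit4 and Txnip. Cluster 2 was led by the heat shock genes Dnajb1, Hspe1 and Hspd1. Cluster 1 was led by the stress gene Hmox1, with Pus7, Rrs1 and Nop16 also among its leading genes. The part of stress in the levels of any of these clusters was not tested.

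Clusters 4 and 3, the highest and the lowest in the summed level, were chosen by these same genes, so their counts are a description only. Between clusters 4 and 3, Msmo1 was at 110 against 30.8 CPM, a ratio of 3.59 (interval 2.74 to 4.76). Sqle was at 61.5 against 22.5 CPM, Idi1 at 111 against 51.4 CPM and Cyp51 at 105 against 48.7 CPM, so that 4 of 8 genes met the rule, where 9.92% of genes were higher and 17.4% lower. Insig1 (64.3 against 57.4 CPM), Fdft1 (27.4 against 25.7) and Hmgcs1 (76.2 against 63.8) were close. The summed level of cluster 3, 327 CPM (303 to 352), lay above those of all myogenic clusters of the other libraries, of which cluster 9 of ASC came nearest at 308 CPM (294 to 322), with overlapping intervals.

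Cluster 9 of ASC held 278 cells, and the 4 other myogenic clusters of that library lay between 184 and 231 CPM. It also had the highest Pax7 level of these clusters, 367 CPM, and a lower median depth of 17150 UMIs against 39520 to 59758 in the others. Against cluster 6, 2 of the 8 genes met the rule, where 27.0% of genes were higher and 1.61% lower. These were Fdft1 (26.0 against 9.53 CPM) and Cyp51 (52.7 against 20.0 CPM). Clusters 9 and 6 were both chosen by the 8 genes, as the highest and the lowest in the sum, so the count is a description only.

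**Figure D4:**
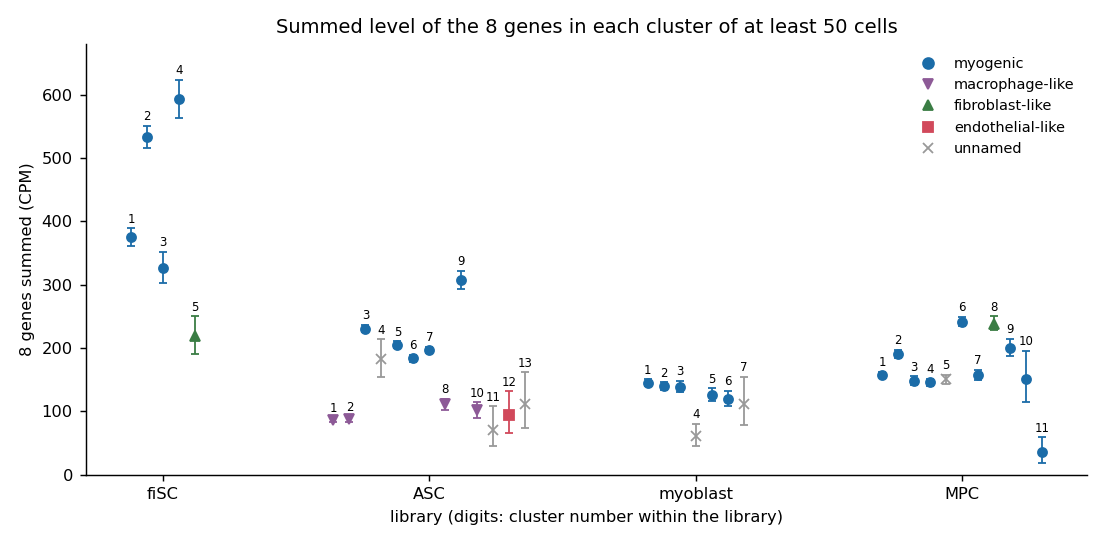
Summed level of the 8 genes in CPM in each cluster of at least 50 cells, by library and named class, with 95% Poisson intervals. All 4 myogenic clusters of fiSC, from 327 to 593 CPM, lie above every myogenic cluster of ASC, myoblast and MPC, and the macrophage-like clusters lie between 86.4 and 111 CPM.

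The clusters named fibroblast-like had other levels again. In MPC, 374 such cells had 239 CPM of the 8 genes summed (228 to 250) against 154 CPM in progenitor-like cells. Msmo1, at 36.4 against 11.2 CPM, was the 1 gene of 8 to meet the rule, where 10.4% of genes were higher and 5.37% lower, and Sqle was at 40.6 against 19.3 CPM. In fiSC, 59 such cells had 219 CPM summed (191 to 250), below the myogenic cells beside them. This cluster was mixed: it had Pax7 at 823 CPM, within the 406 to 2029 CPM of the myogenic clusters. At 20 CPM or more it had 12 of 14 progenitor, 5 differentiating myocyte and 2 mature myofibre markers. It also had 7 macrophage, 9 endothelial and 4 mural markers at that level. The part of these other cells in its levels was not tested. Idi1 at 16.0 against 90.8 CPM, Cyp51 at 25.9 against 78.8 CPM and Msmo1 at 29.9 against 75.4 CPM were lower by the rule, where 6.03% of genes were lower and 20.0% higher. Insig1 was at 49.8 against 58.9 CPM, a ratio of 0.847 (interval 0.625 to 1.12).

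In single cells the genes were sparse. Thinned to 2000 UMIs, from 3.70% (Fdft1) to 12.6% (Idi1) of myogenic fiSC cells had a UMI of a given gene, against 3.00 to 8.53% in ASC, 1.95 to 3.90% in myoblast and 2.60 to 6.55% in MPC. Without thinning the ranges were 13.6 to 34.4% in fiSC and 38.5 to 74.3% in ASC, whose median myogenic cells held 8722 and 48050.5 UMIs. The macrophage-like cells had 0.841 to 5.25% thinned. A fiSC cell had on average 0.891 UMIs of the 8 genes in 2000, with a variance 1.90 times the mean, where counting alone gives a ratio near 1. That ratio was 1.24 in ASC, 1.14 in myoblast and 1.20 in MPC.

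In the ASC library the macrophage-like cells had less of the pathway than the myogenic cells around them, 90.6 CPM summed (88.0 to 93.3) against 210 CPM. By the size rule 4 of 8 genes were lower and none higher, where 31.0% of 9073 genes were lower and 20.4% higher. Sqle was at 3.63 against 26.0 CPM, 7.16 times lower (interval 6.16 to 8.36), and Idi1 at 4.72 against 31.4 CPM, 6.66 times lower (5.83 to 7.63). Fdps was at 8.47 against 25.4 CPM, a log2 ratio of -1.17, and Cyp51 at 11.9 against 28.7 CPM, on the edge of the rule. Without the shared barcodes Cyp51 stood just short of it. With TMM scaling, Fdps (-0.86) and Cyp51 (-0.65) did not meet the rule.

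The other 4 genes did not meet the rule. Fdft1 was at 3.83 against 11.6 CPM, 3.02 times lower, and missed the rule because of the 5 CPM added to both levels. Hmgcs1 was at 24.6 against 45.3 CPM and Msmo1 at 15.6 against 24.7 CPM. Insig1 was level, at 17.8 against 16.5 CPM, with a log2 ratio of 0.09 that changed to -0.13 when ribosomal protein and mitochondrial genes were left out of the total. The median log2 ratio of the 8 genes was -0.95 and that of all genes -0.35, which TMM scaling moved to 0.10 with 56.2% of calls higher instead of 39.7%. In macrophage-like cells 14 muscle progenitor markers, summed, stood at 3.67% of their myogenic level, and the 8 genes at 13.97% (Sqle) to 108% (Insig1). Free RNA, undetected doublets and engulfed debris cannot be told apart in the marker ratio. The part of muscle RNA in the macrophage-like levels of the 8 genes was not tested.

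The rest of the sterol system was read from gene lists, whose counts stand beside the 31.0% of all genes lower and 20.4% higher in macrophage-like cells. Of the sterol export, esterification and LXR list, 7 of 7 measured genes were higher in macrophage-like cells by the rule. The lipoprotein gene Apoe was at 20219 against 121 CPM, the cholesterol exporter Abca1 at 684 against 5.12 CPM, the exporter Abcg1 at 137 against 1.23 CPM and the nuclear receptor Nr1h3 (LXR alpha) at 42.6 against 1.14 CPM. Of the uptake and transport list 4 of 5 measured were higher: the lysosomal lipase Lipa (378 against 3.78 CPM), the lysosomal cholesterol carriers Npc2 and Npc1, and the ubiquitin ligase Mylip. Of the other enzymes of cholesterol synthesis 1 of 4 measured was lower, Lbr (10.5 against 57.4 CPM). Srebf2, the gene of SREBP-2, was at 30.8 against 77.5 CPM, the 1 gene of 6 in the sensing list to meet the rule. Fatty acid synthesis had 6 of 9 lower, among them Fasn (2.51 against 31.1 CPM), and the branches from farnesyl diphosphate 4 of 8 lower. A gene counted as measured with 10 CPM or more in either class. Abca1, Abcg1, Nr1h3 and Lipa reached this in macrophage-like cells alone and could not be called lower. Fasn reached it in myogenic cells alone and could not be called higher. The counts of these lists are therefore a description only. All 20 G2/M genes were also lower in the macrophage-like cells, with a median of -3.10.

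**Figure D5:**
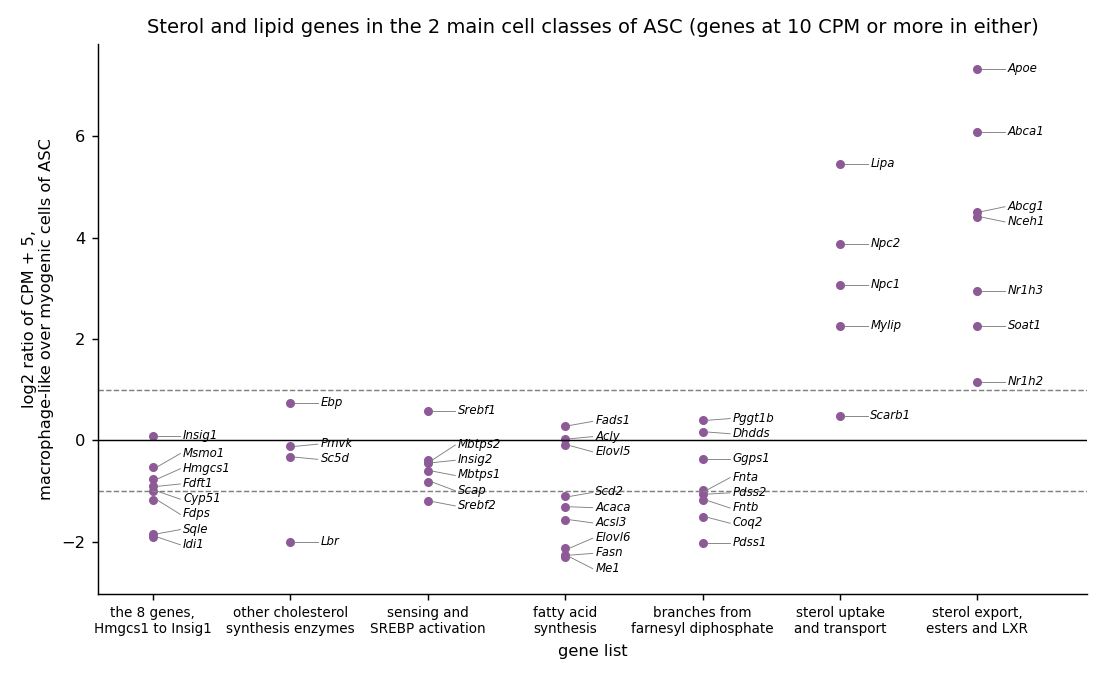
Log2 ratios of CPM plus 5, macrophage-like over myogenic cells of ASC, for the measured genes reported from 7 lists, with thin lines joining points to names and dashed lines at 2-fold. The 8 genes lie at or below 0 except Insig1, and all 7 genes of the export and LXR list lie above the upper line.

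Among myogenic cells, some of the other synthesis enzymes differed from fiSC. Lower by the rule were 1 of 6 measured in ASC, where 23.6% of all genes were lower, 2 of 6 in myoblast (17.6% of all genes) and 2 of 7 in MPC (16.4%), and none was higher. Hsd17b7, which acts beside Msmo1, had 43.1 CPM in fiSC against 7.86 in ASC, 11.6 in MPC and 9.60 in myoblast. Sc5d, a sterol desaturase, was at 22.8, 11.1, 8.41 and 7.77 CPM in the same order, lower by the rule in MPC and myoblast.

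In the sensing list, the INSIG1 relative Insig2 had 238 CPM in fiSC against 24.3 in ASC, 38.9 in MPC and 20.8 in myoblast, with larger log2 ratios (-3.05, -2.47 and -3.24) than any of the 8 genes in the same comparison. Srebf2 was at 160, 77.5, 107 and 52.6 CPM in the order fiSC, ASC, MPC and myoblast. It met the rule in myoblast only (-1.52), with ASC on the edge of the rule. Apoe had 606 CPM in fiSC, then 121 in ASC, 23.1 in MPC and 1.17 in myoblast. In ASC the 14 macrophage markers summed to 194 CPM in myogenic cells against 35260 CPM in macrophage-like cells, which held far more Apoe. The part of macrophage RNA in the ASC level of Apoe was not tested. Of the fatty acid synthesis list 5 of 11 genes were higher in MPC than in fiSC and none lower, where 28.9% of all genes were higher. In myoblast 3 of 11 were higher and 2 lower, where 28.9% of all genes were higher and 17.6% lower. In ASC none of 10 was higher and 2 were lower, where 24.3% of all genes were higher and 23.6% lower. The desaturase gene Scd2 was at 235 CPM in MPC, 50.4 in myoblast, 46.3 in ASC and 22.0 in fiSC, and Elovl6, which lengthens fatty acids, at 147, 21.0, 27.1 and 49.4 CPM. Between MPC and myoblast 3 of 11 genes of that list were higher by the rule, where 6.47% of all genes were.

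Over the 36 clusters of at least 50 cells in the 4 libraries, the genes were related unevenly. Pearson correlations of log2 CPM plus 5 between pairs of the 8 genes ran from 0.01 (Fdps and Insig1) to 0.85 (Sqle and Cyp51). Hmgcs1, Sqle, Cyp51, Msmo1 and Insig1 all correlated at 0.67 or more with one another, and Fdft1 and Fdps correlated at 0.14 between themselves. With each library's mean removed, the pairs among those 5 genes ran from 0.51 (Insig1 and Msmo1) to 0.82 (Sqle and Cyp51), Idi1 and Insig1 went from 0.53 to 0.18, and Fdps and Insig1 to -0.11. The points share library, depth and batch, so these are descriptions. Among 7857 other genes the pattern of the 8 was most like that of Dusp10 (r 0.90), a phosphatase of MAP kinases, and Uck2 (0.89), a uridine-cytidine kinase, followed by Vezf1, Rgmb, Frmd6, Slc4a4, Gxylt2, Arsj, Myc and Abca5 (0.87 to 0.85). Srebf2 came next at 0.85, and Insig2 (0.83), Hsd17b7 (0.81) and Sc5d (0.81) ranked 26, 58 and 65. With each library's mean removed none of the first 10 was among the 10 most alike, and Pabpn1 (0.86) came first.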

How the data were processed

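Single cells were measured with 10x Genomics 3' v3.1 chemistry, per the labels. The deposited files hold raw UMI counts per gene and barcode, made by the authors with STAR 2.7.10b on GRCm39, per the submitters' processing notes. UMI collapsing, cell calling, annotation and the handling of reads that match several genes are not given in the sources used here. The latter matters for Fdps, Idi1 and other genes with related copies. Counts of 22 symbols on more than 1 feature were summed.

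Cells were kept with at least 1000 UMIs, 500 genes and at most 10% mitochondrial UMIs. Scrublet (scanpy 1.11.5) marked 66 fiSC, 295 ASC, 61 myoblast and 836 MPC doublets, by its automatic threshold in ASC and elsewhere by the expected rate of 0.8% per 1000 cells, since the automatic threshold marked under 0.5%. The kept cells held 19975483, 179109303, 54581416 and 134273031 UMIs. Each library was clustered alone (2000 variable genes without markers, listed genes and the 8 genes, 30 components, 15 neighbours, Leiden resolution 0.5, igraph 0.11.9). Clusters of at least 50 cells were named by the marker list with the highest summed CPM if at least 3 markers reached 20 CPM, and stayed unnamed if more leading markers of another class were present. Progenitor-like and muscle differentiation-like clusters were joined as myogenic. Cluster 7 of ASC (548 cells) and cluster 2 of MPC (1326 cells) were given neither of these names but also counted as myogenic. Cluster 5 of MPC (973 cells, Pax7 at 1257 CPM) stayed unnamed because of Rgs5. Naming details were chosen once the data had been seen, and the 8 genes and the lists were chosen with earlier results of these data known.

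UMIs were summed per class and scaled to CPM, with a pseudocount of 5 in log2 ratios. Intervals are exact Poisson, exact conditional (ratios) and exact binomial (shares) at 95%, and cover counting error only. No test was run, since each group was 1 library. The size rule was tried on simulated counts with counting noise only and with changes larger than the rule asks. That trial did not cover variation between libraries or changes near 2-fold. Named genes are the 8 genes, listed genes that met the rule or bear on one, and the 10 most correlated. Alternatives covered the cells used, scaling (TMM, edgeR 4.0.16), pseudocount, filters, doublets, resolution and averaging. Promoters are RefSeq windows on GRCm38.p6. Some genes of the lists are not reported here and are left out of the counts of list genes.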

Additional observations from a re-analysis of the deposited data

How the results depend on the processing

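No paired analysis was possible because each group was 1 library. Against fiSC the counts of lower genes stayed within 1.5 times the reported ones under all 15 alternatives tried, and no gene that met the size rule changed direction. The summed log2 ratio ranged from -1.29 to -0.84 for ASC, -1.70 to -1.40 for myoblast and -1.53 to -1.21 for MPC. Other summed ratios moved more: MPC against ASC from -0.60 (TMM) to -0.02 (all cells, macrophage-like ones included), myoblast against ASC from -0.86 to -0.23, MPC against myoblast from -0.07 to 0.39 and macrophage-like against myogenic cells from -1.44 to -0.71. Counts of 1 gene moved easily. Myoblast against ASC had 0 lower genes with all cells, a pseudocount of 20 CPM or the strict cell filter, and 2 with TMM, without ribosomal protein and mitochondrial genes in the total, with a pseudocount of 1 CPM, with each cell weighted equally or in cells under 2 G2/M UMIs. MPC against ASC had 0 higher genes with progenitor-like cells alone, TMM, a pseudocount of 20 CPM or cells under 2 G2/M UMIs. MPC against myoblast had 1 higher gene (Fdft1) without ribosomal protein and mitochondrial genes or with a pseudocount of 1 CPM. The macrophage-like comparison had 2 lower genes with TMM or doublets kept and 1 with a pseudocount of 20 CPM. The summed ratio of cells with G2/M genes in ASC was -0.35 with the split at 1 UMI. The cause was not tested. Of the single-gene ratios 799 kept their side of the rule, 16 passed it and 17 no longer did. TMM moved the median of all genes from 0.17 to -0.11 (myoblast against ASC, 53.7% of calls higher instead of 75.0%) and from 0.21 to -0.12 (MPC against ASC, 49.9% instead of 73.5%). The alternatives in cells under 2 G2/M UMIs, without shared barcodes and with cluster 5 of MPC counted as myogenic were chosen after seeing the data. The level that 3 UMIs give in myogenic cells was highest in fiSC, at 0.158 CPM.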

Other observations

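A group of 12 ASC cells, too few to be named but with all 12 fibroblast markers, had 918 CPM of the 8 genes summed (interval 832 to 1010), from 420 UMIs. Hmgcs1 was at 286 CPM and Cyp51 at 179 CPM there. The unnamed cluster 4 of the myoblast library (180 cells, median 3798.5 UMIs) had 61.1 CPM summed, and the unnamed cluster 5 of MPC (973 cells) 151 CPM.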
